A study of Homo sapiens with 6 samples.

Results

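The genes described here are 10 enzymes that build or cap the outer sugars of glycoproteins and glycolipids: ABO, the fucosyltransferases FUT1, FUT2, FUT3, FUT4, FUT6 and FUT8, the galactosyltransferase B3GALT5, the N-acetylgalactosaminyltransferase B4GALNT2 and the sialyltransferase ST6GAL1. They were picked by name, out of 60666 genes listed, with the difference between HCT116 and DNMT3B KO cells already known, so their differences between the lines are given as a description, without p-values, and the calls counted among them below are not independent evidence. Of the 10 genes, 8 had enough counts to enter the fit across 16959 genes, while FUT6 and B4GALNT2 did not.

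RNA-seq was performed on HCT116, an established human colorectal cancer cell line, and on its DNMT3B KO derivative, in which the gene of the de novo DNA methyltransferase DNMT3B was knocked out, with 3 libraries for each line. Both lines were untreated, came from the same laboratory and were grown in McCoy's 5A medium with fetal calf serum and antibiotics. The knockout was represented by 1 derived cell line, so that an effect of the knockout and any other difference that arose in that line cannot be told apart. Whether the 3 HCT116 or the 3 DNMT3B KO libraries were made from independent cultures is not stated, and p-values therefore measure only the spread between these libraries, which may be technical.

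ABO adds the last sugar of the blood group A and B antigens, and it can act only on a chain that already carries the H antigen. The H antigen is made by alpha-1,2-fucosyltransferases: FUT1 is the enzyme of red cells and vessels, and FUT2 is the secretor enzyme of gut and other epithelia. B3GALT5 makes the type 1 chains on which FUT3, the Lewis enzyme, builds Lewis a and sialyl-Lewis a, the carbohydrate measured as the tumour marker CA19-9, whereas FUT4 and FUT6 add alpha-1,3-linked fucose to type 2 chains, FUT8 fucosylates the core of N-glycans, ST6GAL1 caps N-glycans with alpha-2,6-linked sialic acid and B4GALNT2 makes the Sda antigen of normal colon.

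The start regions of B3GALT5, FUT1 and FUT2 are shown first because B3GALT5 was nearly lost in DNMT3B KO and the balance of FUT1 and FUT2 shifted, and because CG dinucleotides are the sites that DNA methyltransferases act on. No methylation was measured here. Of the 10 genes, 9 were matched in the table of RefSeq start regions used here (GRCh38.p14), all but ABO, and each sequence is the 250 bases before an annotated start, read 5′ to 3′ on the strand of the gene, with every CG in capitals. The dinucleotide CG reads the same on both strands.
B3GALT5, first start, chr21:39612690-39612939, plus strand: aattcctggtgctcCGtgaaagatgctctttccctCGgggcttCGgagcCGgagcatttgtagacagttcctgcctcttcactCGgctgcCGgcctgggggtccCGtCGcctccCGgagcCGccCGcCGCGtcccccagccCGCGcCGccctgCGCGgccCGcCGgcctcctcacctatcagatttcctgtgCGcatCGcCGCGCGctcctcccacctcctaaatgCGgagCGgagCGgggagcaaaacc
B3GALT5, second start, chr21:39642146-39642395, plus strand: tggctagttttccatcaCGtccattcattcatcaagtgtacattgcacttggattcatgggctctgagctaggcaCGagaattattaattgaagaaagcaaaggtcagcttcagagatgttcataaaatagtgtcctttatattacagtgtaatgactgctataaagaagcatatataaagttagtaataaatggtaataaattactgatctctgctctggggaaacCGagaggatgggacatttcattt
FUT1, first start, chr19:48755359-48755608, minus strand: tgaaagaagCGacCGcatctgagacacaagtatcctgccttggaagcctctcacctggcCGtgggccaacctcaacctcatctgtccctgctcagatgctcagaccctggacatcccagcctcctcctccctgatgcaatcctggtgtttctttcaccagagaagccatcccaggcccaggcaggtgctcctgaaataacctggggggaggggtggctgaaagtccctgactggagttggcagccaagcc
FUT1, second start, chr19:48752642-48752891, minus strand: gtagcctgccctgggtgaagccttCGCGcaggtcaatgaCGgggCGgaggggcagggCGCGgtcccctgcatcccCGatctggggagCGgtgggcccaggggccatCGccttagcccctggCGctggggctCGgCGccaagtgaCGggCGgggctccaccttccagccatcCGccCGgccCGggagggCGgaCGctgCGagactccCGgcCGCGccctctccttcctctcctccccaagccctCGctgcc
FUT2, chr19:48695721-48695970, plus strand: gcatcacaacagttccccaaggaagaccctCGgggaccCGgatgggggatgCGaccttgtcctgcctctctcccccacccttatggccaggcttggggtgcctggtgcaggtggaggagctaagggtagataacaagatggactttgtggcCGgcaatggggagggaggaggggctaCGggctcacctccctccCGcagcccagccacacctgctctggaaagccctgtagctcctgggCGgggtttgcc

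Over a window of 300 bases, from 250 before to 50 after each start, the first start of B3GALT5 held 35 CG and the second held 3. The first start of FUT1 held 3, the second held 30, and that of FUT2 held 8. Among all 35116 RefSeq start windows of this length, 96% held at least 1 CG, the median was 14 and the quartiles were 4 and 28. The first start of B3GALT5 therefore had more CG than 85.9% of windows, and its second start more than 18.2%. The other genes ranged widely. FUT8 had 3 starts with 1, 23 and 40 CG, B4GALNT2 had 2 starts with 11 and 26, and single starts held 30 in FUT4, 24 in ST6GAL1, 9 in FUT3 and 3 in FUT6. Gene-level counts do not show which start was used.

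Values are estimated counts per gene and, where libraries are compared, CPM (counts scaled to a common library total after TMM normalisation). The 6 libraries summed to between 55436267 and 68274783 counts, and 3 counts, taken as the lowest level that can be read, corresponded to 0.0416 to 0.0595 CPM, a limit that covers counting error only. DNMT3B itself was 36.0 ± 5.15 CPM (SD, n = 3) in HCT116 and 2.75 ± 0.182 in DNMT3B KO. Of the markers of colorectal epithelium, EPCAM and the intestinal transcription factor CDX2 were present in both lines and did not pass the test, KRT8, KRT18, KRT19 and CDH1 were lower in DNMT3B KO, and VIL1 was nearly absent from HCT116 at 0.0841 CPM and higher in DNMT3B KO at 1.05 CPM. Summed, the 7 markers lay between 4388 and 5256 CPM in HCT116 but between 2123 and 2310 CPM in DNMT3B KO. The 5 fibroblast markers summed to 9.70 to 19.5 and 12.7 to 15.8 CPM, with LUM at 0, the markers of immune and blood cells to 5.73 to 14.3 and 15.7 to 21.3 CPM, and the 3 endothelial markers to 0.516 to 1.27 and 1.01 to 1.6 CPM. The part of these marker differences in the values of the glycosyltransferases was not tested, and in bulk RNA fewer cells that express a gene and less RNA per cell cannot be told apart.

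Across all genes tested, 28.1% passed an adjusted p of 0.05 in edgeR's quasi-likelihood test, 12.9% higher and 15.1% lower in DNMT3B KO, and the 3 libraries of one line lay entirely above those of the other for 45.9%. Among the 8 glycosyltransferases tested, 1 passed as higher, namely FUT1, and 4 as lower, namely ABO, FUT2, FUT8 and B3GALT5. The same 5 genes were those whose libraries did not overlap. FUT3, FUT4 and ST6GAL1 did not pass. Nothing can be read from setting these counts against the background, since the genes were picked with this contrast known, and ABO and B3GALT5 entered the fit only through their level in HCT116.

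**Figure D1:**
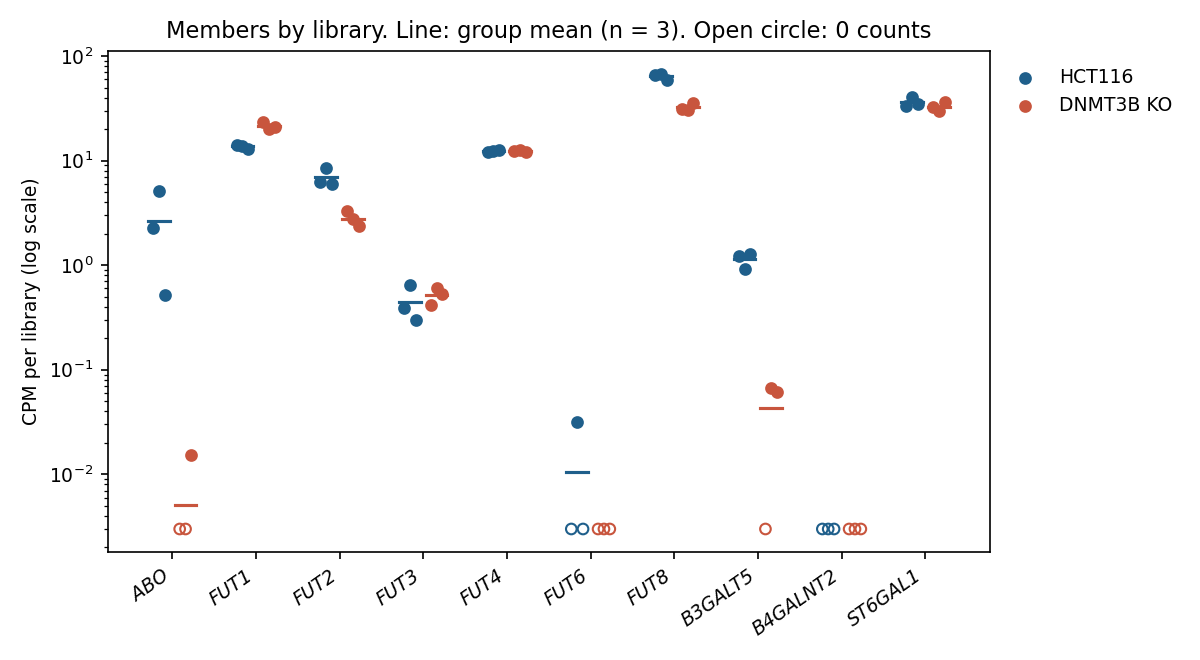
CPM of each of the 10 glycosyltransferases (log scale) in the 3 HCT116 and 3 DNMT3B KO libraries, with a line at each group mean and open circles for libraries with 0 counts, which are drawn at an arbitrary height. The ABO and B3GALT5 libraries of DNMT3B KO sit far below those of HCT116, FUT1 sits above, FUT2 and FUT8 sit below, and FUT3, FUT4 and ST6GAL1 overlap.

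ABO (chr9:133233278-133276024, minus strand, 9 exons in the canonical transcript, hg38) was expressed in HCT116 and was at or next to 0 in DNMT3B KO. The HCT116 libraries had 150, 327 and 26 estimated counts, or 2.26, 5.13 and 0.516 CPM in replicates 1, 2 and 3. The DNMT3B KO libraries had 0, 0 and 1 counts. Every HCT116 library was thus well above the 3-count limit and every DNMT3B KO library below it, but the HCT116 libraries themselves were widely spread. Their coefficient of variation was 88.5%, higher than that of 97.8% of genes tested, where the median gene had 16%. Summed over the libraries, 503 counts in HCT116 stood against 1 in DNMT3B KO, a ratio of 550 after scaling with an exact 95% interval of 98.3 to 21770, which covers counting error only. The fitted log2 fold change was −8.55 (SE 1.24) and moved to −10.36 when DNMT3B KO replicate 3, the library with the single count, was left out. With so few counts in DNMT3B KO, the size of the difference has no useful upper bound.

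The genes whose profile over the 6 libraries was nearest to that of ABO shared this shape. The 5 nearest protein-coding genes were TNFRSF6B, KCND3, LEMD1, SDR16C5 and ZNF396, at Euclidean distances of 1.2, 1.2, 1.28, 1.35 and 1.43 on centred log2 CPM. TNFRSF6B, a decoy receptor for the Fas ligand, had 127, 244 and 58.3 CPM in HCT116 and 3.08, 2.08 and 2.27 CPM in DNMT3B KO. KCND3, a voltage-gated potassium channel, had 98, 167 and 40 counts against 0, 0 and 1. LEMD1, a cancer-testis antigen, had 243, 724 and 49 counts against 10, 7 and 14. SDR16C5, a retinol dehydrogenase, had 326 counts in HCT116 and none in DNMT3B KO, at least 38.2-fold lower against 3 counts per library, and ZNF396, a zinc finger protein, had 254 and 2. In each of these genes HCT116 replicate 2 was the highest library and replicate 3 the lowest of its line, as for ABO. That order of HCT116 replicates, 2 above 1 above 3, held in 34.2% of all genes tested and in 4 of the 8 glycosyltransferases. Likeness was measured on the same libraries, and the genes were found by it, so it says nothing further about them.

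The enzymes that make the H antigen, the acceptor of ABO, moved in opposite directions. FUT1 (chr19:48748011-48755390, minus strand) was at 14.2, 13.9 and 13.1 CPM in HCT116 and at 23.6, 20.2 and 20.9 CPM in DNMT3B KO. All DNMT3B KO libraries were above all HCT116 libraries, by a log2 fold change of 0.65 (SE 0.11). FUT2 (chr19:48695971-48705951, plus strand), on the same chromosome, was at 6.29, 8.56 and 5.93 CPM in HCT116 and at 3.27, 2.77 and 2.35 CPM in DNMT3B KO. Here all DNMT3B KO libraries were below, by a log2 fold change of −1.31 (SE 0.22).

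Per length of transcript, FUT1 exceeded FUT2 in every library of both lines, and the gap was wider in DNMT3B KO. The ratio of FUT1 to FUT2 in CPM per kb was 2.05, 1.48 and 2.0 in the HCT116 libraries and 6.56, 6.65 and 8.09 in the DNMT3B KO libraries. FUT1 made up 64.5% ± 4.25 (SD, n = 3) of the sum of both in HCT116 and 87.6% ± 1.24 in DNMT3B KO. The sum itself was 6.22 ± 0.545 CPM per kb in HCT116 and 7.19 ± 0.645 in DNMT3B KO, and its ranges, 5.71 to 6.80 and 6.79 to 7.94, overlapped slightly. The sum thus did not separate the lines, whereas the ratio did. Of the 50-base stretches of FUT1 transcripts 98.2% occurred in no other gene, and of those of FUT2 92.6%, where 146 of the others were shared with the pseudogene SEC1P. SEC1P, added for its position, had 25 counts in all HCT116 libraries and 9 in all DNMT3B KO libraries.

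**Figure D2:**
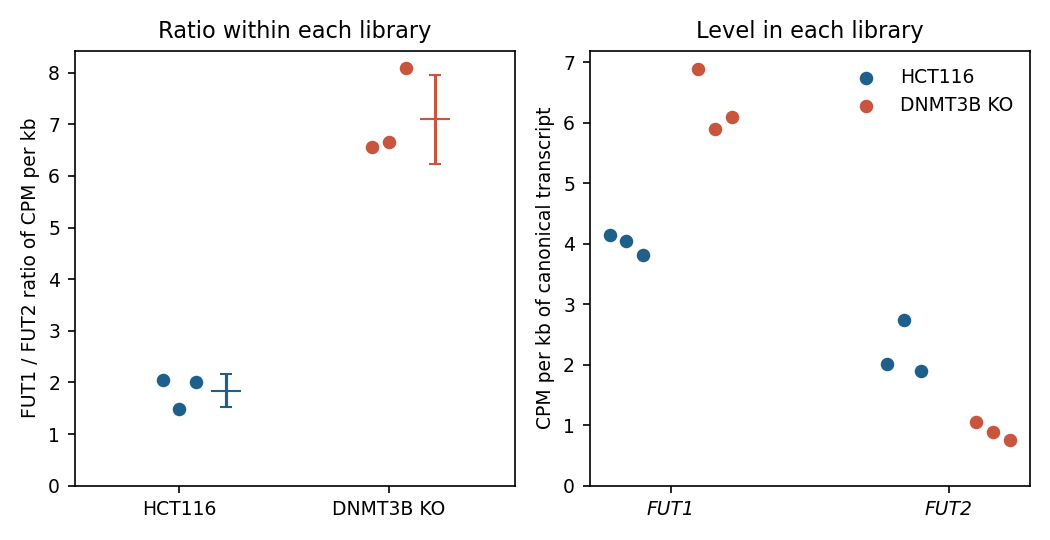
Left, ratio of FUT1 to FUT2 (CPM per kb of canonical transcript) within each library, with mean and SD beside the points (n = 3 per line); right, the level of each gene in CPM per kb in each library. The ratio lay between 1.48 and 2.05 in HCT116 and between 6.56 and 8.09 in DNMT3B KO, from a higher FUT1 and a lower FUT2.

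FUT1 and FUT2 are separated by a stretch that holds MAMSTR and RASIP1, and both of these rose in DNMT3B KO. MAMSTR, a coactivator of myogenic transcription factors and the nearest tested coding gene above FUT2, went from 0.624 ± 0.0577 to 1.52 ± 0.113 CPM (edgeR, adjusted p = 0.0072). RASIP1, a Ras-interacting protein of endothelial cells and the nearest below FUT1, went from 0.573 ± 0.224 to 3.56 ± 1.36 CPM (edgeR, adjusted p = 0.0022). On the outer sides, NTN5 beside FUT2 and BCAT2 beside FUT1 did not pass, at 0.639 and 0.599 CPM and at 56.6 and 54.6 CPM in HCT116 and DNMT3B KO.

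B3GALT5 (chr21:39556442-39673137, plus strand) was the other gene that was nearly lost in DNMT3B KO. Its HCT116 libraries had 81, 59 and 64 counts, or 1.22, 0.926 and 1.27 CPM. Its DNMT3B KO libraries had 0, 4 and 4 counts, or 0, 0.0671 and 0.0609 CPM. The groups were far apart and, unlike for ABO, the HCT116 libraries lay close together, with a coefficient of variation of 16.3%. The mean level was 26.7 times as high in HCT116, and the log2 fold change was −4.72 (SE 0.65). The level in HCT116 was low all the same, the lowest per kb of transcript of the 8 genes tested, at 0.0869 CPM per kb over a long canonical transcript of 13097 bases. That rank rests on this length. Without it, B3GALT5 at a mean of 1.14 CPM was above FUT3 at 0.444 CPM in HCT116.

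A transcript on the opposite strand went with B3GALT5. B3GALT5-AS1, an antisense long non-coding RNA added here for its position, begins 30 bases before the first RefSeq start of B3GALT5 and runs away from it within the longer GENCODE gene model. Its start thus falls inside the first sequence printed above, the one with the many CG. It had 28, 27 and 28 counts in the HCT116 libraries and 0 in each DNMT3B KO library, at least 10.2-fold lower against 3 counts per library. Exons of the genes share 132 bases on opposite strands, and although the library kit keeps strand, it is not stated that the counting used it, so reads in those bases cannot be told apart. The second start of B3GALT5, 29456 bases further on, had few CG. SH3BGR, the nearest tested coding gene on the lower side, rose from 1.453 ± 0.0891 to 3.35 ± 0.0948 CPM (edgeR, adjusted p = 0.0031), the opposite direction to B3GALT5.

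The fucosyltransferases of the Lewis and type 2 chains did not separate the lines. FUT3 (chr19:5842888-5851471, minus strand) was at 0.391, 0.644 and 0.298 CPM in HCT116 and at 0.416, 0.604 and 0.533 CPM in DNMT3B KO. The libraries of the lines were interleaved, and the log2 fold change of 0.21 (SE 0.38) was smaller than its error. Only 86.2% of the 50-base stretches of FUT3 were unique to it, the rest being shared with FUT5 and FUT6 among others, so part of its counts may have been assigned from these paralogs. FUT6 (chr19:5830408-5839722, minus strand) had 0, 2 and 0 counts in HCT116 and none in DNMT3B KO, below the level that can be read in every library.

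FUT4 (chr11:94543921-94549895, plus strand, a single exon) was the steadiest of the group. It was at 12, 12.4 and 12.6 CPM in HCT116 and at 12.4, 12.7 and 12.2 CPM in DNMT3B KO. Its log2 fold change was 0.01 (SE 0.11), with an HCT116 coefficient of variation of 2.17%, lower than that of all but 2.34% of genes tested. Of the summed RNA per length of FUT3, FUT4, FUT5, FUT6, FUT7 and FUT9, FUT4 made up 89.0% ± 6.57 (SD, n = 3) in HCT116 and 89.1% ± 1.6 in DNMT3B KO. This sum leaves out FUT10 and FUT11, which were higher than FUT4. They were at 7.54 and 10.6 CPM per kb in HCT116 and at 7.26 and 9.50 in DNMT3B KO. FUT4 shares 602 of its 5975 exonic bases with PIWIL4 on the same strand, but PIWIL4 was at 0.463 and 0.544 CPM.

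Core fucosylation rests on FUT8 alone, and its RNA was lower by about as much in each DNMT3B KO library. FUT8 (chr14:65410592-65744121, plus strand) was at 65.6, 68.1 and 59.3 CPM in HCT116 and at 31.1, 30.4 and 35.3 CPM in DNMT3B KO. The lowest HCT116 library was well above the highest DNMT3B KO library, and the log2 fold change was −0.995 (SE 0.098). FUT8 remained the most abundant of the 10 genes per length in both lines, at 15.1 ± 1.06 and 7.60 ± 0.622 CPM per kb (SD, n = 3). Its share of their summed level went from 45.0% ± 2.89 to 31.4% ± 1.57. An antisense gene, FUT8-AS1, overlaps 824 of its 6976 exonic bases.

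Of the enzymes that cap chains, ST6GAL1 (chr3:186930325-187078553, plus strand) was at 33.2, 40.3 and 34.7 CPM in HCT116 and at 32.7, 29.6 and 36.0 CPM in DNMT3B KO. The libraries overlapped, and the log2 fold change was −0.14 (SE 0.11). With FUT8 lower, its share of the summed level of the 10 genes was 23.2% ± 1.71 in HCT116 and 29.4% ± 1.41 in DNMT3B KO. B4GALNT2 (chr17:49132460-49176840, plus strand) had 0 counts in all 6 libraries. This allows up to 3 counts in each, at most 0.0595 CPM.

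Ordered by level per length in HCT116, the genes ran from FUT8 at 15.1 ± 1.06 CPM per kb (SD, n = 3) through ST6GAL1 at 7.83 ± 0.808 and FUT1 at 4.0 ± 0.171 to ABO at 2.30 ± 2.03, FUT2 at 2.22 ± 0.457 and FUT4 at 2.07 ± 0.0448. These last 3 did not differ beyond their spread, and the highest ABO library, unlike the other 2, was also above FUT1. FUT3 at 0.173 ± 0.0698, B3GALT5 at 0.0869 ± 0.0142 and FUT6 and B4GALNT2 at or near 0 followed. In DNMT3B KO the first 3 places were held by FUT8 at 7.60 ± 0.622, ST6GAL1 at 7.12 ± 0.690 and FUT1 at 6.30 ± 0.520, close enough that neighbours in this order did not differ beyond their spread. FUT4 at 2.08 ± 0.0448 came next, clearly above FUT2 at 0.897 ± 0.149 and FUT3 at 0.202 ± 0.0370. ABO and B3GALT5 followed, at 0.00443 and 0.00326 CPM per kb with at most 4 counts in any library, and FUT6 and B4GALNT2 had 0 counts, so that the order of these last 4 cannot be read. The order rests on canonical transcript lengths, and other isoforms would shift it.

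Around these enzymes, 108 other genes of sugar supply, chain synthesis, branching and sialylation were listed, and 85 of them had enough counts for the test. In DNMT3B KO 9 rose and 30 fell, and 46 did not pass, with a median log2 fold change of −0.09. Of the 85, 45.9% passed in either direction, against 28.1% of all genes tested. Of all genes tested 12.9% rose and 15.1% fell, with a median of −0.0006. The lists were drawn up by function, but with earlier results of these data known, so nothing can be read from setting these counts against the background.

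**Figure D3:**
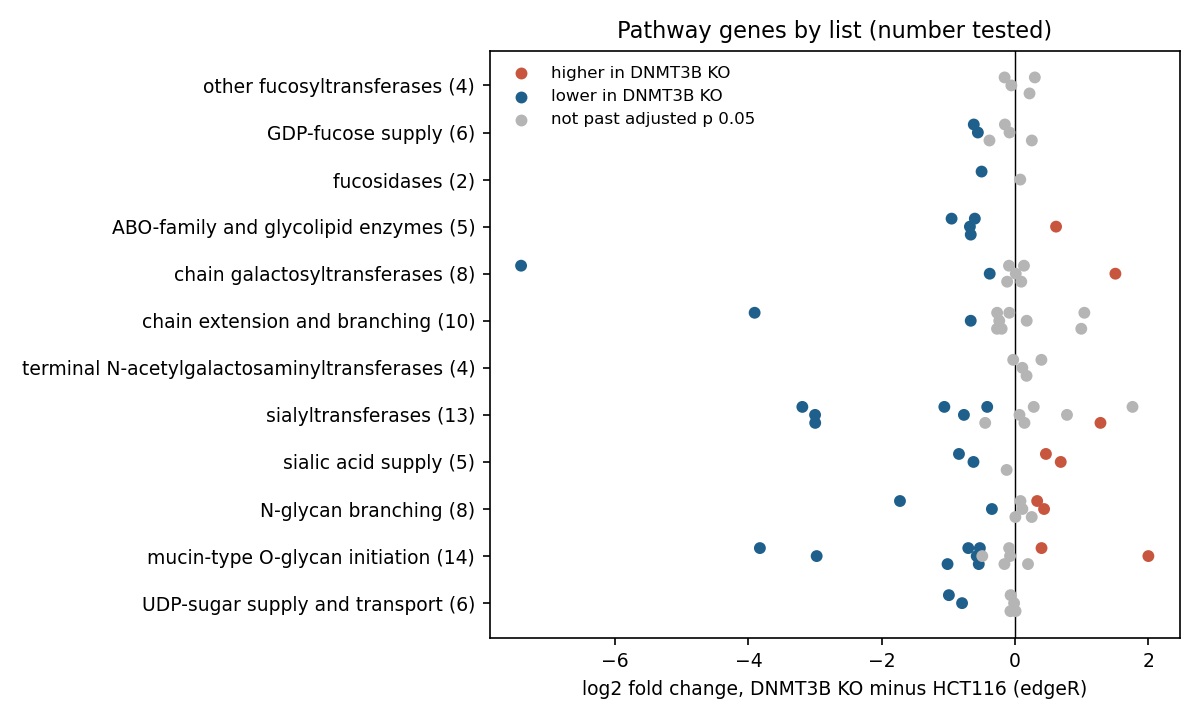
Log2 fold change (DNMT3B KO minus HCT116, edgeR) of the 85 tested pathway genes, one point per gene, by functional list, coloured by whether the gene passed an adjusted p of 0.05 as higher, as lower or not at all. More genes fell (30) than rose (9), and B3GALT1, GCNT3, GALNT5 and several sialyltransferases lie furthest to the left.

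No further fucosyltransferase passed the test. None of the 4 tested, FUT10, FUT11 and the protein O-fucosyltransferases POFUT1 and POFUT2, passed in edgeR, where 1 had an unadjusted p under 0.05, and none passed in DESeq2. Their log2 fold changes ran from −0.15 to 0.30. Of 6 genes that make or carry GDP-fucose, the donor of every fucosyltransferase, 2 fell and none rose. GFUS, which completes its synthesis from GDP-mannose, fell from 81.7 ± 9.53 to 53.3 ± 3.72 CPM (log2 fold change −0.62, edgeR adjusted p = 0.0044), and GMDS, which begins it, fell from 16.9 ± 0.879 to 11.5 ± 1.09 CPM (−0.56, edgeR adjusted p = 0.012, or 0.056 without DNMT3B KO replicate 2). The transporters SLC35C1 and SLC35C2 and the salvage enzymes FCSK and FPGT did not pass. The lysosomal fucosidase FUCA1 had a log2 fold change of −0.50 (edgeR adjusted p = 0.029), which did not hold without HCT116 replicate 1 (0.066) or without DNMT3B KO replicates 1, 2 or 3 (0.09, 0.11 and 0.051) or with a replicate block (0.069), and FUCA2 did not pass.

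Of 5 tested enzymes of glycolipid chains, 4 fell and 1 rose, where 15.1% of all genes tested fell and 12.9% rose. This list too was drawn up with earlier results known, so the counts are a description only. UGCG, which makes glucosylceramide, fell from 60.8 ± 2.90 to 38.1 ± 0.850 CPM (edgeR, adjusted p = 0.00063). B4GALT5 and B4GALT6, the lactosylceramide synthases, fell by 0.66 and 0.95 on the log2 scale (edgeR, adjusted p = 0.0023 and 0.0054), and A4GALT, the enzyme of the P1 and Pk antigens, fell by 0.60 (edgeR, adjusted p = 0.0071). B3GALNT1, the globoside synthase, named after its value was seen, had a log2 fold change of 0.62 (edgeR adjusted p = 0.013, or 0.061 without DNMT3B KO replicate 2). GBGT1, A3GALT2 and GLT6D1, the other members of the family of ABO, were not tested, with at most 1 count over all libraries.

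Among 8 chain galactosyltransferases, 1 rose, 2 fell and 5 did not pass. B3GALT1, which like B3GALT5 makes type 1 chains, fell from 380 counts over the HCT116 libraries to 2 over those of DNMT3B KO (edgeR, adjusted p = 0.00013). The ratio was 208, with an exact 95% interval of 57.1 to 1722, which covers counting error only. Like ABO and B3GALT5, this gene entered the fit only through its level in HCT116. B3GALT4, the GM1 synthase, rose from 0.521 ± 0.130 to 1.49 ± 0.288 CPM (edgeR, adjusted p = 0.0087), and B4GALT3 had a log2 fold change of −0.38 (edgeR adjusted p = 0.012, or 0.06 without DNMT3B KO replicate 2). B4GALT1, B4GALT2, B4GALT4, and C1GALT1 with its chaperone C1GALT1C1, did not pass. Of 10 genes of chain extension and branching, 2 fell and 8 did not pass. GCNT3, the mucin-type core 2 and core 4 branching enzyme of gut epithelium, fell from 3.38 ± 2.34 to 0.221 ± 0.135 CPM (edgeR, adjusted p = 0.0026). Like B3GALT1, GCNT3 entered the fit only through its level in HCT116, where its libraries were widely spread, at 2.35, 6.06 and 1.73 CPM. B3GNT7 had a log2 fold change of −0.66 (edgeR adjusted p = 0.015), which did not hold without HCT116 replicate 1 (0.051) or DNMT3B KO replicates 2 or 3 (0.064 and 0.06). B4GALNT1, B4GALNT3, B4GALNT4 and B3GALNT2, 4 further N-acetylgalactosaminyltransferases, did not pass in edgeR, where none had an unadjusted p under 0.05, nor in DESeq2.

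Of 13 sialyltransferases tested besides ST6GAL1, 1 rose, 6 fell and 6 did not pass. ST6GALNAC2 fell from 7.57 ± 3.67 to 0.944 ± 0.252 CPM (edgeR, adjusted p = 0.001) and ST6GALNAC5 from 2.75 ± 0.256 to 0.297 ± 0.162 CPM (edgeR, adjusted p = 0.00081), enzymes that add alpha-2,6-linked sialic acid to O-glycans and gangliosides. ST8SIA6, which extends sialic acid, fell from 6.21 ± 2.32 to 0.776 ± 0.0653 CPM (edgeR, adjusted p = 0.00042), and ST3GAL1, which caps core 1 O-glycans, fell by 0.77 on the log2 scale (edgeR, adjusted p = 0.0039). ST6GALNAC4, another that fell, was lost without DNMT3B KO replicate 3 (0.057). The one that rose, ST6GALNAC3, named after its value was seen, had an adjusted p of 0.041 in edgeR, which did not hold without HCT116 replicate 1 (0.061), without DNMT3B KO replicates 1, 2 or 3 (0.074, 0.12 and 0.13) or with a replicate block (0.064). Of 5 genes of sialic acid supply, GNE and NANS, which make the sugar, rose by 0.69 and 0.47 on the log2 scale (edgeR, adjusted p = 0.0041 and 0.0058). CMAS and SLC35A1, which activate it and carry it into the Golgi, fell by 0.62 and 0.84 (edgeR, adjusted p = 0.0052 and 0.00087).

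Of 8 genes of N-glycan branching, which act on the same glycans as FUT8, 2 rose, 2 fell and 4 did not pass. MGAT5 rose from 85.7 ± 5.55 to 116 ± 5.23 CPM (edgeR, adjusted p = 0.0072), while the other 3 calls did not hold under some alternatives, though each kept its direction. MGAT5B (log2 fold change −1.73, edgeR adjusted p = 0.012) was lost without DNMT3B KO replicate 1 (0.055) or 3 (0.052). MGAT4B (−0.35, edgeR adjusted p = 0.022) was lost without HCT116 replicate 1 (0.093) or any DNMT3B KO replicate (0.075 to 0.094). MGAT2 (0.33, edgeR adjusted p = 0.039) was lost without HCT116 replicates 1 or 2 (0.11 and 0.058), without any 1 DNMT3B KO replicate (0.086 to 0.14), without the filter on low counts (0.062) or with a replicate block (0.064). Of 14 genes that start mucin-type O-glycans, 2 rose, 7 fell and 5 did not pass. GALNT5 fell from 21.1 ± 3.89 to 1.48 ± 0.478 CPM (edgeR, adjusted p = 5e-05) and GALNT2 from 92.4 ± 3.66 to 45.8 ± 0.577 CPM (edgeR, adjusted p = 6.9e-05), while GALNT6 and GALNT10 fell by 0.70 and 0.54 on the log2 scale (edgeR, adjusted p = 0.0033 and 0.0061). The genes that rose, named after their values were seen, were GALNT13 and GALNT1. GALNT13 stayed below 1 CPM at 0.119 ± 0.0389 and 0.488 ± 0.0576 CPM (edgeR, adjusted p = 0.0054). It entered the fit only through its level in DNMT3B KO. GALNT1 was at 104 ± 16.4 and 137 ± 8.74 CPM (edgeR, adjusted p = 0.047). GALNT1 was lost under 6 of the 10 alternatives, with DESeq2 size factors (0.056), without HCT116 replicates 1 or 2 (0.13 and 0.053) and without DNMT3B KO replicates 1, 2 or 3 (0.096, 0.12 and 0.18). Of those that fell, GALNT12 was lost under 5, with a replicate block (0.053), without HCT116 replicate 1 (0.09) and when any of the DNMT3B KO libraries 1, 2 or 3 was left out (0.062, 0.12 and 0.089), and GALNT9 without DNMT3B KO replicate 2 (0.05). Among genes that supply UDP-sugars, UGP2, which makes UDP-glucose, fell from 61.0 ± 2.98 to 30.7 ± 1.43 CPM (edgeR, adjusted p = 0.00012).

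Of the 15 coding genes nearest to the 10 enzymes, 4 rose in DNMT3B KO and none fell in edgeR, where 2 had an unadjusted p under 0.05 as lower, and 1 fell in DESeq2. In edgeR 26.7% of these neighbours thus passed in either direction, against 28.1% of all genes tested, of which 12.9% rose and 15.1% fell. The share is near that of all genes, so the count shows nothing particular to these surroundings. Besides MAMSTR, RASIP1 and SH3BGR, the gene that rose was IGF2BP1, an RNA-binding protein beside B4GALNT2, which went from 0.765 ± 0.272 to 2.59 ± 0.507 CPM (edgeR, adjusted p = 0.0065). Beside ABO, RALGDS was at 46.4 and 32.6 CPM and SURF6 at 54.9 and 50.1 CPM in HCT116 and DNMT3B KO, and neither passed. MAX, on the lower side of FUT8, was at 49.4 and 44.3 CPM and did not pass.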

How the data were processed

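Libraries of mRNA from HCT116 and DNMT3B KO cells were made with a kit that keeps strand, and both ends of the fragments were sequenced. Per the study's methods and the labels, the authors used STAR for alignment to hg38 and Salmon for counting in GENCODE 37 transcripts, scaled for gene length, and the deposited values are estimated counts per gene, 1 file per library. Salmon's assignment of reads shared by paralogs can shift counts between FUT3, FUT5 and FUT6.

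Here these values were rounded to integers, low genes were removed with filterByExpr, libraries were scaled by TMM, and genotype was tested with edgeR's quasi-likelihood test (edgeR 4.0.16, R 4.3.3) with Benjamini-Hochberg adjustment over all 16959 genes and a threshold of 0.05. The pipeline was run on simulated counts that had the same spread beyond counting error in every gene and both lines. The spread in the data differed between genes and lines, so this checked the code and not the error rates here. DESeq2 1.42.0, its size factors, no filter, a replicate block and leaving out each library were tried as alternatives. CPM use TMM-scaled totals, and CPM per kb use canonical GENCODE 44 transcript lengths. Coordinates are GENCODE 44 on hg38.

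The 10 enzymes and all gene lists were chosen with earlier results of these data known. Named genes were the 10 enzymes, of each list the called genes with the 4 smallest adjusted p among those reaching 1 CPM in either line, neighbours (nearest tested coding gene per side within 500 kb) that were called, and the 5 nearest profiles to ABO (log2 of CPM plus 0.05). The check of replicate numbers is given with the alternatives. No methylation data were analysed here. Some genes of the lists are not reported here by name.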

Additional observations from a re-analysis of the deposited data

How the results depend on the processing

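The calls of the 8 tested enzymes, 1 higher and 4 lower, stood at 1 and 4 under all 10 alternatives. Their log2 fold changes moved by less than the larger within-line SD of log2 CPM of the gene, except for ABO. That of ABO was −8.55 and became −10.36 without DNMT3B KO replicate 3. Leaving out 1 library moved the number of all genes called higher from 2196 to between 1283 and 2868, with 1287 without HCT116 replicate 1 and 1322, 1283 and 1337 without DNMT3B KO replicates 1, 2 and 3, and the number called lower from 2565 to between 1758 and 3143. Pathway genes called higher went from 9 to between 5 and 11, the lowest without DNMT3B KO replicate 2, and those called lower from 30 to between 23 and 33. Neighbouring genes called lower went from 0 to 1 with the DESeq2 Wald test and to 1 with no filter on low counts, in both cases RALGDS, and ranged from 0 to 1 when 1 library was left out. The cause of these shifts was not tested. For DNMT3B, called neighbours and pathway genes named by smallest adjusted p, 327 values under the alternatives kept the call and 23 lost it. Called pathway genes named besides these are not in that count. Of them, GALNT1 lost its call under 6 of the 10 alternatives, ST6GALNAC3 and GALNT12 under 5 each, and B3GALNT1, ST6GALNAC4 and GALNT9 under 1 each.

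The labels number the libraries of both lines 1 to 3. Deviations of same-numbered libraries correlated weakly, at 0.064, −0.0096 and 0.122 for numbers 1, 2 and 3. The last was the highest value of any pair across the lines, whereas HCT116 replicate 2 correlated best with DNMT3B KO replicate 1 (0.084). With 3 libraries per line, such values cannot show whether the numbers pair them. With a replicate block, 1890 genes were called higher and 2324 lower, 7 pathway genes were called higher and 28 lower, 35 of the 39 calls being shared, and the enzymes stood at 1 and 4. At this depth FUT6, B4GALNT2 and, in DNMT3B KO, ABO and B3GALT5 were at or below what 3 to 4 counts can show.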

Other observations

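The spread between replicates differed between the lines. Over all genes tested the coefficient of variation in HCT116 had quartiles of 8.62%, 16% and 29.2%, and in DNMT3B KO of 4.94%, 8.51% and 17%. On log2 CPM, pairs of HCT116 replicates correlated at 0.975 to 0.987, and pairs of DNMT3B KO replicates at 0.990 to 0.991. The 8 enzymes tested were divided. In HCT116 and DNMT3B KO, FUT2 was at 20.6% and 16.6%, FUT3 at 40.3% and 18.3%, FUT4 at 2.17% and 2.15% and ST6GAL1 at 10.3% and 9.70%, whereas FUT1 was at 4.27% and 8.27%, FUT8 at 7.01% and 8.19%, and ABO and B3GALT5, with almost no counts in DNMT3B KO, at 88.5% and 173% and at 16.3% and 86.9%. These values were not tested.

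FUT5, the third gene of the FUT3 cluster, was not tested, with 33 counts over the HCT116 libraries and 17 over those of DNMT3B KO. Only 17.9% of its 50-base stretches were unique to it, so its counts cannot be separated from those of FUT3 and FUT6. FUT7 had 0 and 3 counts, and FUT9 had none.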
